A study of Homo sapiens with 12 samples.

Results

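The mRNAs described here are 9 immediate early or short-lived transcripts, FOS, JUN, JUNB, JUND, EGR1, IER2, MYC, ZFP36 and DUSP1, which were chosen by name and matched by symbol to the gene identifiers of the deposited counts. They are 9 of 61860 genes and 35 of 251121 transcripts in the data. The cells were HEK293 Flp-In T-REx lines, derived from human embryonic kidney. On doxycycline they transcribe a chain of miRNAs that target the cells' own PGC-1α mRNA, and also a FLAG-tagged PGC-1α that resists these miRNAs. PGC-1α is a transcriptional coactivator of energy metabolism, and the introduced copy was either full length (WT-res) or lacked the arginine- and serine-rich RS domain (ΔRS-res). Both lines received 1 µg/ml doxycycline for 6 days, so that every group carries the induced miRNAs and an introduced PGC-1α, and no library of untreated cells is part of the series. Whole-cell RNA came from 1 well and cytoplasmic RNA from 6 pooled wells after hypotonic lysis, in 3 consecutive passages per line, which gave 4 groups of 3 libraries. Each construct is represented by 1 stable line, so construct and line cannot be told apart. The passages are repeats of 1 line, and p-values measure the spread between them.

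Depth was high, with 90333190 to 144628005 expected counts per library, so that the least abundant member, FOS, still had between 160 and 378 counts. The 8 markers fixed for HEK293 cells summed to 1210 to 1734 CPM (the count scaled to a common TMM-adjusted library size), and 12 markers of other cell types to 10.8 to 15.2 CPM. VIM alone held 760 to 1056 CPM of the former. Of the 8, 7 were above 1 CPM in every library, all but NEFM (0.258 to 0.694), though PAX2 (2.79 to 5.81) and LHX1 (1.64 to 4.01) were low. Of the 12, 3 were above 1 CPM in every library, CD68 (1.63 to 6.19), COL1A1 (2.98 to 6.64) and HBA1 (2.58 to 6.61). Replicate 3 of the WT-res whole-cell libraries went against its label. DDX19B had 1140 to 2059 counts in the other 5 WT-res libraries, 27 to 45 in the 6 ΔRS-res libraries and 21 in this library, and SDHA had 68.0 to 77.2, 326 to 382 and 328 CPM, respectively. It was kept under its label, and the counts of calls and the called values that use it are given with and without it. PPARGC1A, the gene of PGC-1α, had 552 to 682 CPM in the other WT-res libraries, 296 to 486 in ΔRS-res and 487 in this library, a sum of endogenous and introduced copies that does not measure the knockdown.

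Immediate early genes are transcribed within minutes of a growth factor, stress or cytokine signal, without new protein synthesis, largely through MAP kinases that act on serum response factor and its partners at CArG boxes and on CREB and AP-1 proteins at their own sites. Their mRNAs are made in short bursts and are degraded quickly. Many carry AU-rich elements in the 3′ untranslated region (UTR), built around the pentamer ATTTA, which recruit decay proteins such as tristetraprolin, the product of ZFP36. The level of such an mRNA in the cytoplasm therefore depends on recent transcription, export and decay together, and these cannot be told apart in a steady-state library.

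The AU-rich letters are shown first because they divide the members. In the 3′UTR of the Ensembl canonical transcript ATTTA occurred 5 times in FOS (806 bases), 5 times in ZFP36 (708 bases), 4 times in DUSP1 (666 bases), 3 times in JUN (1284 bases), 2 times in JUNB (500 bases), and 1 time each in JUND (747 bases) and EGR1 (1222 bases). IER2 had 0 in 1053 bases. For MYC the canonical transcript, MYC-206, held 6 in 1993 bases, and MYC-202, to which most MYC counts were assigned, held 4 in 476 bases. Of 19550 canonical 3′UTRs 67.5% held the pentamer and 8.44% the nonamer TTATTTATT, which contains it. Among 3′UTRs within 20% of the same length, FOS had more pentamers than 92.0%, ZFP36 than 94.3% and DUSP1 than 90.8%, whereas EGR1 had more than 19.6%. The nonamer occurred in FOS and ZFP36 (1 each) and in DUSP1 (2), overlapping itself or the pentamers. The 30-base window richest in ATTTA, on the mRNA strand of GRCh38 and read on that strand only, was as follows, with the pentamers in capitals.
FOS: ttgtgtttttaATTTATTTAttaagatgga
JUN: ttccagaaaggatATTTAagaaaatacaat
JUNB: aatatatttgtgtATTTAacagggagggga
JUND: tcgattctgccctATTTAtgtttctactcg
EGR1: actgaaaatgtaaATTTAtaaatatattca
ZFP36: cctttATTTAtgacgactttATTTAttcta
DUSP1: ggctggtccttATTTATTTAacttcacccg
These windows lie in the last exon of each mRNA, at chr14:75282057-75282086 (FOS, plus strand), chr1:58781336-58781365 (JUN, minus strand), chr19:12793059-12793088 (JUNB, plus strand), chr19:18279998-18280027 (JUND, minus strand), chr5:138469063-138469092 (EGR1, plus strand), chr19:39409188-39409217 (ZFP36, plus strand) and chr5:172768641-172768670 (DUSP1, minus strand).

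Promoters from RefSeq (GRCh38.p14, 250 bases before to 50 after the annotated start) were found for 8 of the 9 members, all but MYC. The motifs were searched as exact letters on both strands, the CArG box as CC, then 6 letters A or T, then GG. The CArG box was present in 1 of the 8, EGR1, at 2 places (−105 to −96 and −83 to −74 from the start), against 1.29% of 35116 promoters. The cAMP response element TGACGTCA was present in JUND and DUSP1 (1.85% of promoters). The variant AP-1 site TGACATCA was present in JUN (2.61%), the AP-1 site TGANTCA in 0 of the 8 (7.71%), the Sp1 box GGGCGG in 6 (45.0%) and TATAAA in FOS, JUNB and DUSP1 (11.5%). None of these motifs contains another. The promoters of EGR1 (CArG boxes in capitals), JUN (the variant AP-1 site in capitals) and DUSP1 (the cAMP response element in capitals) are shown as examples of the sites through which SRF, AP-1 and CREB are known to act on immediate early genes.
EGR1: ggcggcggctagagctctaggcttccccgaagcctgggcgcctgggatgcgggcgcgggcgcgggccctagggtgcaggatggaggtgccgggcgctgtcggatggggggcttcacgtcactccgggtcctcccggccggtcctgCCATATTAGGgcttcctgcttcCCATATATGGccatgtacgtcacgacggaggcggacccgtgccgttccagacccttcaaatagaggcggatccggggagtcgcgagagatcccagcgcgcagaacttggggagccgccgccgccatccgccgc
JUN: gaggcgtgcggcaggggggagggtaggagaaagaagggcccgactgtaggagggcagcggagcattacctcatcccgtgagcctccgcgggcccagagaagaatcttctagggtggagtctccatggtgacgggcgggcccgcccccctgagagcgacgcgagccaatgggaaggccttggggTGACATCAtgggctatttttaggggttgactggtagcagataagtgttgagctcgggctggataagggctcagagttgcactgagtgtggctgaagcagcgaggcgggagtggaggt
DUSP1: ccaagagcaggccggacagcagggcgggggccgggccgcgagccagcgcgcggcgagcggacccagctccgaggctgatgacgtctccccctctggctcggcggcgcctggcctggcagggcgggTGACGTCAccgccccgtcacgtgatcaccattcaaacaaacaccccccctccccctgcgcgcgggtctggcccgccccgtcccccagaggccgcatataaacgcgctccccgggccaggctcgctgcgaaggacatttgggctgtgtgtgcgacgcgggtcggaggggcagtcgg
They lie at chr5:138465229-138465528 (EGR1, plus strand), chr1:58783998-58784297 (JUN, minus strand) and chr5:172771146-172771445 (DUSP1, minus strand). A match describes the letters and no binding was measured. Sites outside this window, or with letters that differ from the motif, were not counted, so a missing match does not show that a gene lacks the site.

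Per kilobase of transcript, on one scale over the 12 libraries, the mean level was highest for JUN (104 CPM per kb, range 69.0 to 149), the leading partner of AP-1, and followed by MYC (59.5, 44.3 to 91.2), the growth regulator. JUND (35.2, 27.2 to 46.2) came next, then IER2 (19.6, 16.2 to 22.8), DUSP1 (17.1, 13.6 to 21.8), JUNB (7.05, 6.02 to 8.87), EGR1 (4.26, 1.97 to 7.35), ZFP36 (3.16, 2.62 to 3.599) and FOS (1.05, 0.722 to 1.41). The ranges, which pool the 4 groups, overlapped between JUN and MYC, MYC and JUND, IER2 and DUSP1, JUNB and EGR1, and EGR1 and ZFP36. They did not overlap between JUND and IER2, DUSP1 and JUNB, or ZFP36 and FOS. The mean level of JUN was 98.9 times that of FOS, its partner in AP-1.

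**Figure D1:**
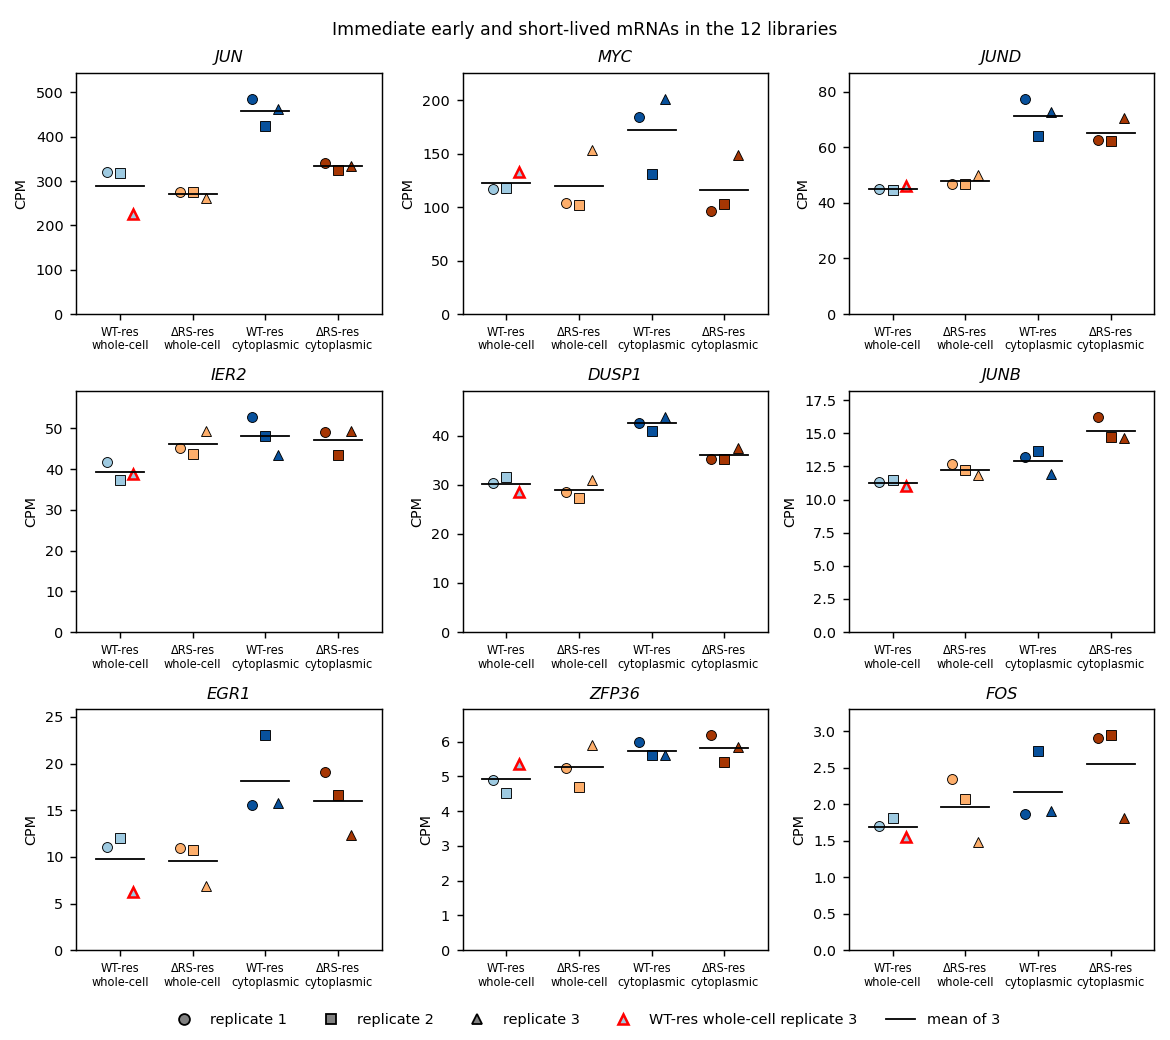
Level of each member in each of the 12 libraries, in CPM with all libraries on one TMM scale, 1 panel per gene and every axis starting at 0. Points are libraries, the shape gives the replicate, lines are means of 3, and the red outline marks replicate 3 of WT-res whole-cell RNA, which is lowest for JUN (225 CPM) and EGR1 (6.19 CPM).

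The first comparison was between the fractions within each line, by the quasi-likelihood test of edgeR, adjusted over all genes (Benjamini-Hochberg). In WT-res 5 of the 9 members were higher in cytoplasmic than in whole-cell RNA and 0 lower. They were EGR1, JUN, JUND, DUSP1 and MYC. Of all 26585 genes tested 12% were called higher and 22.4% lower. In ΔRS-res 5 members were also higher and 0 lower, namely EGR1, JUN, JUND, DUSP1 and JUNB, where 17% of 26589 genes were called higher and 24.1% lower. The median log2 fold change of the members was 0.48 in WT-res and 0.31 in ΔRS-res, against −0.06 and −0.06 over all genes. Without WT-res whole-cell replicate 3 the same 5 members were called in WT-res, where 13.9% of all genes were higher, and the median of the members was 0.42. Values are shares of a library, so these differences describe composition, and an amount of RNA per cell was not measured.

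The libraries of the fractions did not overlap for 8 of the 9 members in WT-res (all but MYC, 21.6% of all genes being higher without overlap), or for 9 of 9 without WT-res whole-cell replicate 3 (30.2% of all genes), and for 5 in ΔRS-res (JUN, JUNB, JUND, EGR1 and DUSP1, 22.8% of all genes). The study's sample sheet gives same-numbered fractions of a line the same cell pellet. With a block for that pellet, IER2 was also called in WT-res (log2 fold change 0.28 ± 0.09 SE, edgeR adjusted p = 0.0377) and FOS in ΔRS-res (0.38 ± 0.11, edgeR adjusted p = 0.0113). The blocked fits called 10300 of 26585 genes in WT-res and 15026 of 26589 in ΔRS-res. In WT-res the block pairs whole-cell replicate 3, which went against its label, with cytoplasmic replicate 3, which did not (DDX19B at 21 and 2059 counts). With the same block and without WT-res whole-cell replicate 3, a fit added after the data had been seen, 3 members were called in WT-res, JUN, JUND and EGR1. The calls of DUSP1 (0.41, edgeR adjusted p = 0.0665) and MYC (0.38, edgeR adjusted p = 0.126) were lost in it. Under library totals without TMM scaling 3 members were called in each line, JUN, JUND and DUSP1. Of 5 listed RNAs known to stay in the nucleus 4 were tested, of which 3 were called lower in the cytoplasm of WT-res (also without WT-res whole-cell replicate 3) and 2 in ΔRS-res, with 0 higher. Over all genes 22.4% and 24.1% were called lower. NEAT1, the RNA of paraspeckles, was at −1.52 in WT-res (−1.43 without that library) and −1.49 in ΔRS-res, while MALAT1, an abundant RNA of nuclear speckles, was not called (−0.71 and −0.40). Stable cytoplasmic mRNAs (10 genes) had a median of 0.44 in WT-res and 0.36 in ΔRS-res, with 8 and 6 called higher (12% and 17% of all genes). Without WT-res whole-cell replicate 3, 7 were called higher in WT-res (13.9% of all genes).

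**Figure D2:**
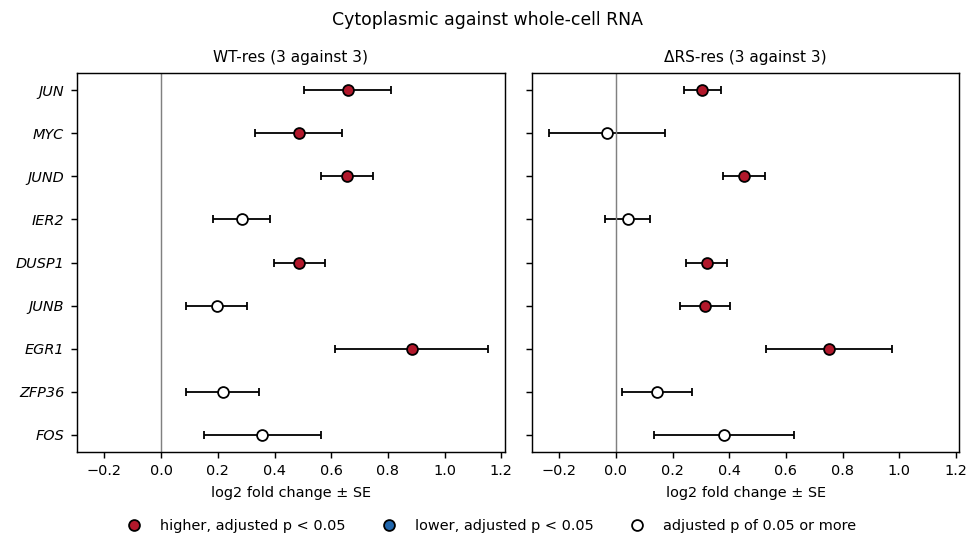
Fitted log2 fold change of cytoplasmic over whole-cell RNA (x axis) for each member, with bars of ± 1 SE, in WT-res (left) and ΔRS-res (right), 3 libraries against 3. Filled points passed an adjusted p of 0.05, which were 5 in each panel, all above 0.

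The second comparison was between the lines in cytoplasmic RNA, which bears on the study's question of whether the RS domain affects which mRNAs reach the cytoplasm. With all 6 libraries JUN was called lower in ΔRS-res and none of the other 8 members was called. Over all 25949 genes 0.948% were called lower. JUN and DUSP1 were lower in ΔRS-res without overlap between the libraries (9% of all genes) and JUNB was higher without overlap (8.37%). The study set aside 1 cytoplasmic library per line. In the 4 libraries it kept (WT-res 1 and 3, ΔRS-res 1 and 2) 6 of the 9 members were called, with JUN, MYC, DUSP1 and JUND lower and FOS and JUNB higher in ΔRS-res. In those libraries 11.4% of 25814 genes were called lower and 10.7% higher, so that calls were frequent among all genes as well. Leaving out either ΔRS-res library of those 4 left 2 members called, JUN and MYC, in fits where the spread comes from the 2 WT-res libraries alone and the lone ΔRS-res library is assumed to vary like them.

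In whole-cell RNA edgeR called 0 members and 0% of 26793 genes between the lines, and 1 member, IER2, had an unadjusted p under 0.05 (0.0310). The DESeq2 Wald test also called 0 members, but it called 1062 of the 26793 genes. With a replicate block 0 members and 2136 genes were called. IER2, JUNB and JUND were higher in ΔRS-res without overlap (9.51% of all genes). Without WT-res whole-cell replicate 3 again 0 members passed, where 0.886% of all genes were called higher and 1.18% lower, and JUN had the lowest adjusted p (0.0894). The same 3 members were higher without overlap in that case (23.2% of all genes) and 2, JUN and EGR1, were lower (19.3%). Same-numbered whole-cell libraries of the lines deviated together, and with a block for that number and without WT-res whole-cell replicate 3, a fit added after the data had been seen, JUN (−0.24 ± 0.04 SE, edgeR adjusted p = 0.0125) and MYC (−0.21 ± 0.04, edgeR adjusted p = 0.0168) were called lower in ΔRS-res. That fit compares 2 libraries per line, and it called 4444 of 26762 genes, so calls were frequent among all genes as well. The test of the difference between the fractions in the line effect called 0 members, with 0.00375% of 26686 genes called. A line effect in the cytoplasm was thus not shown to differ from that in whole-cell RNA for any member.

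**Figure D3:**
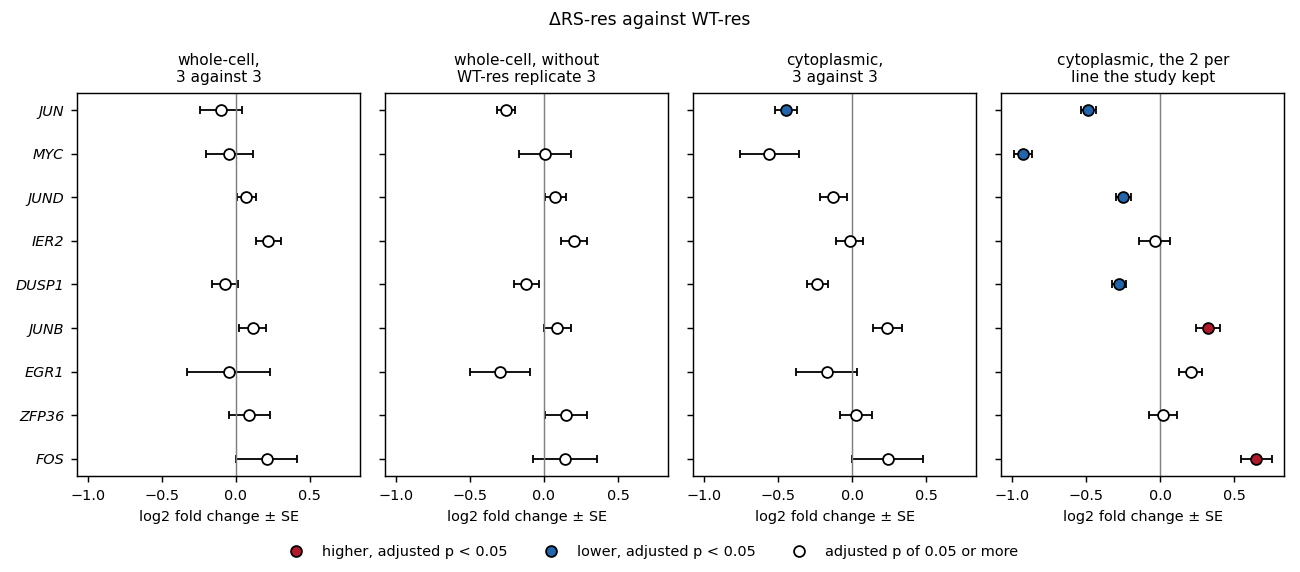
Fitted log2 fold change of ΔRS-res over WT-res (x axis) with bars of ± 1 SE for each member, from left to right for all 6 whole-cell libraries, those left without WT-res replicate 3, all 6 cytoplasmic libraries, and the 4 cytoplasmic ones that the study kept. Filled points passed an adjusted p of 0.05, with 0, 0, 1 and 6 members from left to right.

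JUN (ENSG00000177606, chromosome 1, 58776845 to 58784048, minus strand of GRCh38), an intronless gene in its main transcript, was the member whose line effect was called with all 6 as well as with 4 cytoplasmic libraries. Its cytoplasmic level was 485, 424 and 463 CPM in WT-res replicates 1 to 3 and 342, 326 and 333 CPM in ΔRS-res. Every WT-res library lay above every ΔRS-res library. In whole-cell RNA it was 321, 319 and 225 CPM in WT-res and 275, 275 and 263 CPM in ΔRS-res, so that the lowest value of all was that of WT-res replicate 3, which reversed the order of the lines in the third pair. The cytoplasmic line effect was −0.45 ± 0.07 (log2, SE, edgeR adjusted p = 0.0265) with 6 libraries and −0.49 ± 0.05 (adjusted p = 0.00239) with the 4 kept by the study. In whole-cell RNA it was −0.10 ± 0.14 (adjusted p = 0.845), and −0.26 ± 0.06 (adjusted p = 0.0894) without WT-res replicate 3. The fraction effect was 0.66 ± 0.15 in WT-res (edgeR adjusted p = 0.0133), or 0.48 ± 0.09 (adjusted p = 0.00526) without that library, and 0.31 ± 0.06 in ΔRS-res (adjusted p = 0.00677). The WT-res call was lost without WT-res cytoplasmic replicate 3 (0.64, edgeR adjusted p = 0.0507). The difference between the lines in the fraction effect was −0.37 ± 0.16 (edgeR adjusted p = 0.887). Without WT-res whole-cell replicate 3 that difference was −0.22 ± 0.09 (adjusted p = 0.889). Of 34 measured genes within 5 Mb of JUN, 1 had a lower cytoplasmic line effect than JUN, and their median was −0.03. The cytoplasmic call for JUN was lost when any of 4 libraries was left out in turn (WT-res 1, WT-res 3, ΔRS-res 1 or ΔRS-res 2), where its log2 fold change stayed between −0.49 and −0.41. It was also lost in a joint fit of all 12 libraries (−0.46, edgeR adjusted p = 0.106), in which the fraction effect of JUN in ΔRS-res was 0.30 (adjusted p = 0.0570).

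JUNB and JUND are further members of the JUN family, of which JUND is expressed at a steady level in many cells and JUNB is inducible. JUND had 44.8, 44.7 and 46.0 CPM in whole-cell WT-res libraries and 46.8, 46.8 and 49.9 in ΔRS-res. In the cytoplasm it had 77.4, 64.1 and 72.9 CPM in WT-res and 62.5, 62.3 and 70.5 in ΔRS-res. It was thus higher in the cytoplasm in both lines, by 0.66 ± 0.09 in WT-res (edgeR adjusted p = 0.00126, or 0.64 and 0.00239 without WT-res whole-cell replicate 3) and 0.45 ± 0.07 in ΔRS-res (adjusted p = 0.00196). The libraries of the lines overlapped in the cytoplasm, with a line effect of −0.13 ± 0.09 for JUND with 6 libraries (edgeR adjusted p = 0.713) and −0.25 ± 0.05 with the 4 kept (adjusted p = 0.0178). JUNB had 11.3, 11.4 and 11.01 CPM in whole-cell WT-res libraries and 12.7, 12.2 and 11.8 in ΔRS-res, then 13.2, 13.7 and 12.0 and 16.2, 14.7 and 14.6 in the corresponding cytoplasmic libraries. All ΔRS-res values exceeded all WT-res values within a fraction. The cytoplasmic line effect of JUNB was 0.24 ± 0.10 (edgeR adjusted p = 0.428) with 6 libraries and 0.32 ± 0.08 (adjusted p = 0.0361) with the 4 kept. In the fraction comparison JUNB was called in ΔRS-res (0.31 ± 0.09, edgeR adjusted p = 0.0233), a call lost in 5 of 6 fits that left 1 library out. With the 4 kept libraries the JUN family thus had 2 members called lower in ΔRS-res, JUN and JUND, and 1 called higher, JUNB, and with all 6 only JUN was called.

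FOS, the partner of the JUN proteins in AP-1, had the lowest counts. Whole-cell FOS was at 1.70, 1.81 and 1.55 CPM in WT-res against 2.34, 2.07 and 1.48 in ΔRS-res. In the cytoplasm it was at 1.87, 2.73 and 1.91 CPM in WT-res against 2.90, 2.95 and 1.82 in ΔRS-res. Replicate 3 of ΔRS-res was its lowest library in both fractions, and the cytoplasmic values of the lines overlapped. With 6 libraries the cytoplasmic line effect was 0.24 ± 0.24 (edgeR adjusted p = 0.823), and with the 4 kept it was 0.65 ± 0.10 (adjusted p = 0.00854). The libraries set aside, WT-res 2 and ΔRS-res 3, were the WT-res library with the highest FOS and the ΔRS-res library with the lowest.

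EGR1 (ENSG00000120738, chromosome 5, 138465479 to 138469303, plus strand), a zinc finger factor that SRF and MAP kinases induce, had the largest fraction effect of the members in each line and the widest spread over all 12 libraries. Without WT-res whole-cell replicate 3 it had neither the largest fraction effect in WT-res nor the widest spread. The fraction effect in ΔRS-res does not use that library. Whole-cell levels were 11.1, 12.0 and 6.19 CPM in WT-res and 10.98, 10.7 and 6.88 in ΔRS-res. Both libraries with number 3 were low. Cytoplasmic levels were 15.6, 23.05 and 15.8 CPM in WT-res and 19.1, 16.6 and 12.3 in ΔRS-res, where the lines overlapped. The fraction effect was 0.88 ± 0.27 in WT-res (edgeR adjusted p = 0.0371), 0.62 ± 0.19 (adjusted p = 0.0398) without WT-res whole-cell replicate 3, and 0.75 ± 0.22 in ΔRS-res (adjusted p = 0.0278). Without that library JUND (0.64) was slightly above EGR1 (0.62) in WT-res. The WT-res call was lost in 4 of 6 fits that left 1 library out (WT-res whole-cell 1 and each of the 3 cytoplasmic libraries, adjusted p up to 0.109), and the ΔRS-res call in 3 of 6 (whole-cell 3, cytoplasmic 1 and 2, up to 0.0932). No line effect was called, and its sign changed with the libraries, from −0.17 ± 0.21 with all 6 cytoplasmic libraries to 0.21 ± 0.08 (edgeR adjusted p = 0.111) with the 4 kept. The pooled SD within groups was 0.36 on the log2(CPM + 1) scale, above that of 94.4% of 14938 genes with a mean count of at least 100, and 0.29 without WT-res whole-cell replicate 3 (93.3%), when MYC had the larger SD (0.31, 94.0%).

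MYC (ENSG00000136997, chromosome 8, 127735434 to 127742951, plus strand), a transcription factor of growth and proliferation with a short-lived mRNA, moved the other way between replicates. Whole-cell levels were 118, 118 and 133 CPM in WT-res and 104, 102 and 154 in ΔRS-res, so that number 3 was the highest in both. In the cytoplasm MYC was at 184, 131 and 201 CPM in WT-res against 96.8, 103 and 149 in ΔRS-res. Of the libraries the study set aside, the WT-res one (131 CPM) was the lowest of its line, and the ΔRS-res one (149 CPM) was the highest of its line and lay above it. With the 4 kept libraries the difference was the largest of any member, −0.93 ± 0.06 (log2, SE, edgeR adjusted p = 0.000801), and with all 6 it was −0.56 ± 0.20 (adjusted p = 0.338, unadjusted p = 0.0228). MYC was higher in the cytoplasm in WT-res by 0.48 ± 0.15 (edgeR adjusted p = 0.0420), and 0.52 ± 0.16 (adjusted p = 0.0426) without WT-res whole-cell replicate 3. That call was lost in 4 of 6 fits that left 1 library out (WT-res whole-cell 1 and 2, cytoplasmic 1 and 3, adjusted p up to 0.147) and in the joint fit of all 12 libraries (0.49, edgeR adjusted p = 0.0756). In ΔRS-res it was at −0.03 ± 0.20 (adjusted p = 0.919), a value that turned to 0.03 under DESeq2's size factors. The difference between the lines in this effect was −0.53 ± 0.29 (adjusted p = 0.994). Of 29 measured genes within 5 Mb, 1 had a lower line effect with 6 libraries and 0 with the 4 kept.

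EGR1, MYC and FOS were also the members with most spread relative to other genes. The pooled SD within groups exceeded that of 89.1% of genes for MYC and 76.1% for FOS (94.0% and 84.6% without WT-res whole-cell replicate 3), but that of 59.7% for JUN, or 12.2% once WT-res whole-cell replicate 3 was left out. JUNB (11.6%, or 18.6% without that library) and DUSP1 (10.6%, or 12.4%) were among the steadier genes. In the cytoplasm EGR1 and FOS were high where MYC was low in WT-res (replicate 2 against 1 and 3), and in ΔRS-res they were low where MYC was high (replicate 3). This is a description over 3 libraries per group.

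DUSP1, a nuclear phosphatase that switches off MAP kinases, had 30.4, 31.6 and 28.6 CPM in whole-cell WT-res libraries and 28.5, 27.4 and 30.9 in ΔRS-res, which overlapped. In the cytoplasm its levels were 42.7, 41.1 and 43.8 CPM in WT-res and 35.3, 35.2 and 37.5 in ΔRS-res, without overlap. The cytoplasmic line effect was −0.23 ± 0.07 with 6 libraries (edgeR adjusted p = 0.240, unadjusted p = 0.0112) and −0.27 ± 0.05 with the 4 kept (adjusted p = 0.0103). The fraction effect was 0.49 ± 0.09 in WT-res (edgeR adjusted p = 0.00510), 0.42 ± 0.08 (adjusted p = 0.00787) without WT-res whole-cell replicate 3, and 0.32 ± 0.07 in ΔRS-res (adjusted p = 0.00930). The ΔRS-res call was lost without ΔRS-res whole-cell replicate 2 (edgeR adjusted p = 0.0508). Of 63 measured genes within 5 Mb, 2 had a lower line effect with 6 libraries.

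ZFP36, whose product tristetraprolin binds AU-rich elements and promotes decay, was nearly level. It had 4.90, 4.52 and 5.35 CPM in whole-cell WT-res libraries, 5.24, 4.69 and 5.91 in ΔRS-res, then 5.98, 5.62 and 5.62 and 6.19, 5.41 and 5.85 in the corresponding cytoplasmic libraries. No comparison called it, with line effects of 0.09 ± 0.14 in whole-cell RNA and 0.03 ± 0.11 in the cytoplasm. IER2, an immediate early nuclear protein, had 41.7, 37.4 and 38.8 CPM in whole-cell WT-res libraries and 45.1, 43.8 and 49.5 in ΔRS-res. Cytoplasmic IER2 was at 52.8, 48.0 and 43.5 CPM in WT-res and 49.0, 43.4 and 49.3 in ΔRS-res. Its whole-cell line effect was 0.22 ± 0.08 (edgeR adjusted p = 0.333), or 0.20 ± 0.09 (adjusted p = 0.253) without WT-res replicate 3, and in the cytoplasm −0.02 ± 0.09 (adjusted p = 0.986).

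Transcripts of the members separated forms that the gene sums hid. At an adjusted p under 0.05, 6 of 24 member transcripts tested differed between fractions in WT-res and 8 of 23 in ΔRS-res, against 19.3% and 20% of all transcripts tested. MYC-206, named after its values were seen, has a last exon that runs 1517 bases past the end of MYC-202. It took 4.06 to 4.98% of MYC counts in whole-cell libraries and 0.53 to 1.30% in cytoplasmic ones, with no overlap. Its level was 5.07, 4.78 and 6.61 CPM in whole-cell WT-res and 4.82, 4.23 and 7.13 in ΔRS-res, and fell to 1.22, 0.70 and 1.20 and 0.72, 0.98 and 1.93 in the corresponding cytoplasmic libraries. The fraction effect of MYC-206 was −2.25 ± 0.28 in WT-res (edgeR adjusted p = 0.00556) and −1.997 ± 0.44 in ΔRS-res (adjusted p = 0.0237), while MYC-202 was at 0.79 ± 0.15 (adjusted p = 0.0189) and 0.18 ± 0.27 (adjusted p = 0.696). Without WT-res whole-cell replicate 3 the WT-res value of MYC-206 was −2.11 ± 0.29 (adjusted p = 0.017) and that of MYC-202 was 0.82 ± 0.19 (adjusted p = 0.0440), and again 6 member transcripts were called.

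IER2 offered a second case. IER2-203 is annotated as a single exon that starts within the intron of IER2-201 and continues through its second exon, and it took 31.2 to 45.3% of IER2 counts in whole-cell libraries and 18.1 to 34.8% in cytoplasmic ones, which overlapped. The spliced IER2-201 was higher in the cytoplasm by 0.66 ± 0.09 in WT-res (edgeR adjusted p = 0.00698) and by 0.49 ± 0.08 in ΔRS-res (adjusted p = 0.00770), and without WT-res whole-cell replicate 3 the former was 0.62 ± 0.09 (adjusted p = 0.0186). IER2-203 itself was at −0.10 ± 0.28 and −0.48 ± 0.31, neither called. The gene sum of IER2, which adds both forms, was not called in ΔRS-res (0.04 ± 0.08, edgeR adjusted p = 0.715). In WT-res it was at 0.28 with an edgeR adjusted p of 0.0572. It was called there with the pellet block, under DESeq2's size factors and Wald test, and in the joint fit of all 12 libraries (adjusted p from 0.0171 to 0.0377). All these fits use WT-res whole-cell replicate 3. Without that library the gene sum was not called in WT-res, either with or without the block. How RSEM divides reads between overlapping forms sets these values, and its part in them was not tested. No member transcript was called between the lines at an adjusted p in any of the 3 line comparisons.

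**Figure D4:**
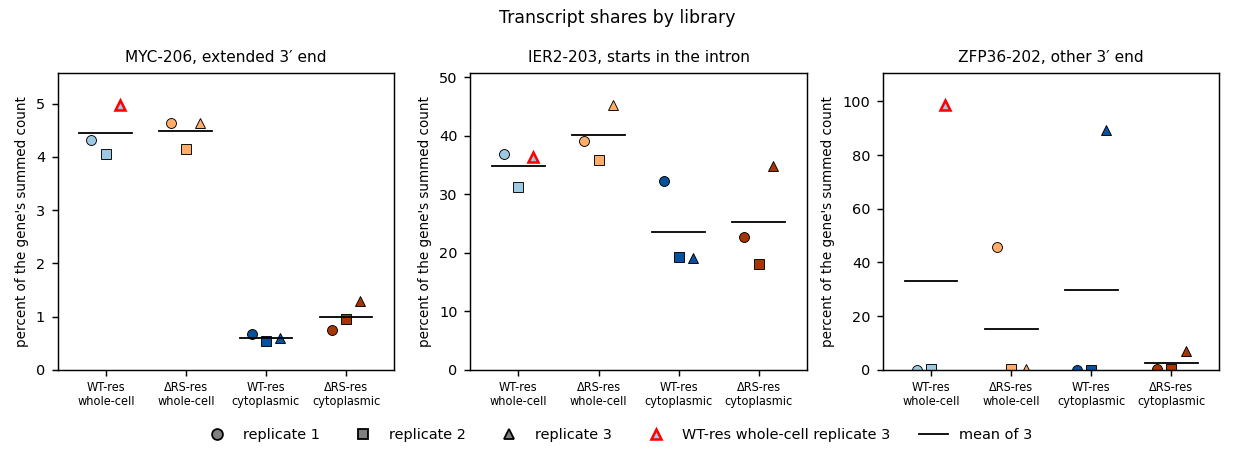
Share of the gene's summed expected count (percent, y axis from 0) assigned to MYC-206, IER2-203 and ZFP36-202 in each of the 12 libraries, with means of 3 as lines and the red outline for replicate 3 of WT-res whole-cell RNA. MYC-206 separates whole-cell from cytoplasmic libraries, IER2-203 does so with overlap, and ZFP36-202 ranges from 0 to 98.7% between libraries of the same kind.

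The other genes of the response were described by lists chosen with earlier results of these data known. Of 48 other immediate early genes 15 were higher and 2 lower in the cytoplasm of WT-res, and 13 were higher and 2 lower in ΔRS-res, with medians of 0.37 and 0.27 against −0.06 over all genes in each line. Over all genes 12% and 17% were higher. The lower genes were CCN1 (−1.76 ± 0.19 SE in WT-res, −1.84 ± 0.15 in ΔRS-res) and CCN2 (−1.65 ± 0.26 and −1.53 ± 0.25), which encode secreted matrix proteins and are targets of YAP. The growth arrest genes GADD45B (1.18 ± 0.11 and 0.87 ± 0.08) and GADD45A (0.95 ± 0.18 and 0.57 ± 0.18) were the furthest in the higher direction. Without WT-res whole-cell replicate 3, 18 were higher and 2 lower in WT-res, with CCN1 at −1.96, CCN2 at −1.88, GADD45B at 1.13 and GADD45A at 1.09. The members thus shared the direction of the larger part of the called immediate early genes, with CCN1 and CCN2 as the exceptions. Between the lines 0 of the 48 were called with 6 whole-cell or with 6 cytoplasmic libraries, but 13 were higher and 18 lower in the 4 kept libraries (10.7% and 11.4% of all genes), led by SGK1 (1.00 ± 0.09), FOSB (0.96 ± 0.11), ID1 (0.91 ± 0.09) and RHOB (−0.84 ± 0.04). In whole-cell RNA without WT-res replicate 3, 1 of the 48 was higher and 1 lower in ΔRS-res, against 0.886% and 1.18% of all genes.

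Of 12 further dual specificity phosphatases and ERK feedback genes tested, 3 were higher in the cytoplasm of WT-res (DUSP8 0.82 ± 0.14, DUSP10 0.75 ± 0.13, DUSP16 0.62 ± 0.09) and 6 in ΔRS-res (12% and 17% of all genes), with 0 lower in either. Without WT-res whole-cell replicate 3, 4 were higher in WT-res, with DUSP8 at 0.69, DUSP10 at 0.67 and DUSP16 at 0.56. Between the lines 0 were called with 6 cytoplasmic libraries or in whole-cell RNA, and in the 4 kept libraries 6 were higher and 2 lower, against 10.7% and 11.4% of all genes. Among these were SPRY4 (0.87 ± 0.07), DUSP6 (0.84 ± 0.08) and DUSP5 (0.64 ± 0.06), which restrain ERK signalling and were higher, unlike DUSP1, and DUSP8 (−0.66 ± 0.07), which was lower. Of 19 genes from the MAP kinases to SRF and CREB, 13 and 15 were higher in the cytoplasm of WT-res and ΔRS-res, against 12% and 17% of all genes, and 0 lower. Without WT-res whole-cell replicate 3, 12 were higher in WT-res. In the 4 kept libraries 3 were higher and 3 lower in ΔRS-res, against 10.7% and 11.4% of all genes. With 6 cytoplasmic libraries the line effect was called for 2, both lower in ΔRS-res, against 0.948% of all genes. They were ATF2 (−0.64 ± 0.06, edgeR adjusted p = 0.00364), a partner of JUN at AP-1 and cAMP response sites, and CREB1 (−0.42 ± 0.07, adjusted p = 0.0264), which binds the cAMP response element. Both were lower in whole-cell RNA too. There ATF2 was at 56.3, 69.0 and 45.2 CPM in WT-res against 32.6, 36.3 and 29.9 in ΔRS-res. CREB1 was at 47.6, 59.2 and 40.9 CPM against 28.1, 33.6 and 27.9. In whole-cell RNA 0 of the 19 were called with 6 libraries. Without WT-res replicate 3, 2 were called lower and 0 higher, against 1.18% and 0.886% of all genes.

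Genes of AU-rich element binding and mRNA decay (22 tested) were higher in the cytoplasm in 14 cases in WT-res and 13 in ΔRS-res, against 12% and 17% of all genes, with 0 lower, and again 14 in WT-res without WT-res whole-cell replicate 3. CNOT6, a deadenylase, led in WT-res (0.64 ± 0.09, or 0.57 without that library). Between the lines 0 of the 22 were called with 6 cytoplasmic libraries, and 6 were higher and 5 lower with the 4 kept, against 10.7% and 11.4% of all genes. The MYC network (10 tested) had 1 gene called between fractions in WT-res and 3 in ΔRS-res, against 34.4% and 41.1% of all genes in either direction. They were MXI1 in WT-res (0.47 ± 0.15, or 0.55 without WT-res whole-cell replicate 3) and MNT (−0.54 ± 0.13), FBXW7 (0.41 ± 0.08) and MYCBP2 (0.23 ± 0.07) in ΔRS-res. Between the lines 0 of the 10 were called with 6 cytoplasmic libraries. Heat shock genes (11 tested), which respond to protein stress, had 1 called higher in the cytoplasm of WT-res and 5 in ΔRS-res, against 12% and 17% of all genes. Without WT-res whole-cell replicate 3, 2 were higher in WT-res, against 13.9% of all genes. With 6 cytoplasmic libraries 1, HSPD1, was lower in ΔRS-res (−0.52 ± 0.09, edgeR adjusted p = 0.0368), against 0.948% of all genes. With the 4 kept libraries 5 heat shock genes were higher and 2 lower, against 10.7% and 11.4% of all genes, led by HSPA8 (0.93 ± 0.06), so stress genes moved beside the members there and their part in the result was not tested.

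Genes with the pattern most like that of each member were sought over the 12 libraries by the root mean square difference of centred log2(CPM + 1) values among 14938 genes. They were FHL2 for DUSP1 (0.0384), CCND3 for JUNB (0.0477), PDLIM1 for JUND (0.0479), NECTIN4 for ZFP36 (0.0508), RREB1 for IER2 (0.0567), SRSF9 for FOS (0.0587), STX3 for JUN (0.0700), C2orf72 for MYC (0.0833) and DHRS2 for EGR1 (0.169). No member was the nearest gene of another. The libraries differ in depth, line and fraction, so likeness describes the profile only.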

How the data were processed

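RNA-seq of 12 libraries was analysed, 3 per line and fraction. The authors ran the nf-core/rnaseq pipeline (Trim Galore for trimming, STAR for alignment to GRCh38, RSEM for counting per transcript, with the annotation of Ensembl release 107), and the values they deposited are expected counts per transcript without normalization. Versions of Trim Galore, STAR, RSEM and the authors' DESeq2 and the strand setting are not given in the sources used here, so reads of overlapping antisense genes may be included. Here expected counts were summed per gene and rounded, genes with a mean above 2 in a comparison were kept, libraries were scaled by TMM, and groups were compared with edgeR 4.0.16 (R 4.3.3) by the quasi-likelihood test with Benjamini-Hochberg adjustment over all genes, called at an adjusted p under 0.05. The study itself called transcripts with DESeq2 at p below 0.05 without adjustment and an absolute log2 fold change over 0.5. As an alternative, that threshold was applied here to the edgeR fits of genes and of transcripts. The DESeq2 Wald test (version 1.42.0) was a further alternative, run per gene and called at an adjusted p under 0.05. The study's own DESeq2 test of transcripts was not repeated. The test was tried on simulated data. CPM values use effective library sizes over all 12 libraries, and totals of 90333190 to 144628005 leave counting error small for every member but FOS.

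The members, the gene lists (other immediate early genes, dual specificity phosphatases and ERK feedback, MAP kinases to SRF, MYC network, AU-rich element binding and decay, heat shock, stable cytoplasmic mRNAs, nuclear RNAs) and the tests were chosen with earlier results of these data known. Named were all members in every library, up to 4 called genes per list with the largest log2 fold change in size, the nearest gene per member, and transcripts with at least 10% of a gene's count. Transcripts below that share were named after their values were seen. In the study's sample sheet same-numbered fractions of a line share a cell pellet. Deviations from the group means correlated between same-numbered fractions at −0.16, 0.60 and 0.49 in WT-res and 0.55, 0.48 and 0.80 in ΔRS-res, between same-numbered whole-cell libraries of the lines at 0.57, 0.58 and 0.69, and between cytoplasmic ones at −0.45, 0.64 and 0.46, so all but the cytoplasmic libraries of the lines met the conditions set for pairs (a shared pellet, or all 3 correlations above 0.1). Every main fit was without a block, and fits with a block, the cytoplasmic lines included, were alternatives. Libraries of a group differed by at least 15.8 chi-square per gene, more than counting noise. Annotation was GENCODE 44 (GRCh38), which gave symbols to 99.83% of genes.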

Additional observations from a re-analysis of the deposited data

How the results depend on the processing

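Direction and side of the threshold stayed the same in 706 single-gene alternatives, 9 gained and 51 lost a call, and 35 changed sign, none of them a called value. Members called in WT-res fractions numbered 5, against 3 under the study's threshold, 3 under library totals without TMM, 3 with a replicate block and without WT-res whole-cell replicate 3, and 2 to 5 with 1 library left out. With all 6 libraries, 6 members were called there under DESeq2's size factors, in its Wald test or with the replicate block, IER2 being added. In ΔRS-res fractions the members called numbered 5, against 1 under the study's threshold, 3 under library totals and 3 to 5 with 1 left out. There 6 were called with the replicate block, FOS being added, and 4 in the joint fit of all 12 libraries. In the cytoplasm with 6 libraries they numbered 1, against 2 with a replicate block (JUN and MYC), 0 in a joint fit of all 12 libraries and 0 to 1 with 1 left out. With the 4 kept libraries they numbered 6, against 2 under the study's threshold (FOS and MYC) and 2 to 6 with 1 left out. In whole-cell RNA they numbered 0, against 2 with the block and without WT-res whole-cell replicate 3, a fit chosen after seeing the data. That fit called 4444 of 26762 genes. Member transcripts called were 0 in the 4 kept libraries (5 under the study's threshold), 6 in WT-res fractions (10) and 8 in ΔRS-res fractions (5).

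Signs turned, with no call, for EGR1 and MYC in whole-cell RNA with 1 library left out (ranges −0.30 to 0.14 and −0.26 to 0.0594), for EGR1, IER2 and ZFP36 in 6 cytoplasmic libraries (−0.32 to 0.0448, −0.0806 to 0.0455 and −0.025 to 0.0681), for IER2 and ZFP36 in the 4 kept (−0.16 to 0.0898 and −0.0738 to 0.11, and ZFP36 at −0.0082 without a filter), and for IER2 and MYC in ΔRS-res fractions (−0.0007 to 0.10 and −0.25 to 0.18, IER2 at −0.0509 under library totals, MYC at 0.0317 under DESeq2's size factors and in its Wald test). In the interaction FOS, EGR1 and ZFP36 turned (−0.15 to 0.22, −0.33 to 0.10 and −0.16 to 0.0070), EGR1 to 0.23 with the 10 libraries the study kept, and FOS to −0.0025 and EGR1 to 0.0375 with the block and without WT-res whole-cell replicate 3. The cause was not tested. The replicate block changed no other member's call than IER2 and FOS between fractions and MYC in the cytoplasm, where MYC had an edgeR adjusted p of 0.0478. No paired analysis was possible for the 4 kept libraries because their numbers share 1 pair. Depth limits FOS most, with 160 to 378 counts.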

Other observations

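ZFP36-202 and ZFP36-203 are annotated with the same start and differ by 5 bases at the 3′ end. The share of ZFP36 counts assigned to ZFP36-202 was 89.2% in WT-res cytoplasmic replicate 3, 98.7% in replicate 3 of WT-res whole-cell RNA, 45.9% in ΔRS-res whole-cell replicate 1 and 7.06% in ΔRS-res cytoplasmic replicate 3, and between 0 and 0.31% in the other 8 libraries. In each group 1 replicate thus stood above the others, least so in ΔRS-res cytoplasmic RNA, whereas the summed count of the gene did not follow it.

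FOS-208, which is annotated to start within an intron of FOS-201, had 3.27, 0 and 7.79 expected counts in whole-cell WT-res libraries and 9.87, 17.0 and 5.28 in ΔRS-res, and 0 in all 6 cytoplasmic libraries. These few counts were part of the gene's sum in every comparison.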
